A study of Mus musculus with 4 samples.

Results

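The comparison described here is that of HT22 cells made to overexpress the long noncoding RNA Ntoco with HT22 cells carrying the empty vector. HT22 is an immortalised mouse line derived from hippocampal neurons. RNA was extracted with TRIzol and made into strand-marked libraries after selection of polyadenylated RNA. Both groups carry a vector, without and with Ntoco, and the labels name no other treatment, time or allele. The label of the overexpression group marks the construct Lv, while the deposited columns call the empty vector pcDNA, the name of a plasmid, so how the constructs were delivered is uncertain. The titles number the cells HT24 for the vector and HT25 for the overexpression group, and the cell line is given as HT22 for both. The labels list 1 sample per group, whereas the table holds 2 numbered columns per group, which were taken as 2 libraries. The genes followed are those with at least 10 counts in at least 2 of these 4 libraries, which kept 11877 of 16846 rows. The series also holds HT22 cells with a control short hairpin RNA (shRNA) and cells with an shRNA against Ntoco. Both serve below as reference levels and to share the estimate of spread. The knockdown difference between them is also compared with the overexpression difference. Whether the libraries are separate cultures is not stated, and the p-values therefore reflect the spread between these samples alone, which may be technical.

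Ntoco is a long noncoding RNA, a transcript that is not translated, and the series title places it in a pathway with the RNA-binding protein Hnrnpab, the transcription factor NF-kB and the secreted iron-siderophore binder Lcn2 in ferroptosis. Ferroptosis is a form of cell death in which iron drives the peroxidation of membrane lipids. Cells hold it off with cystine import, glutathione and the lipid peroxide reductase Gpx4, and feed it with polyunsaturated lipids and free iron. Several other programmes in these data respond to their own sensors. SREBP transcription factors raise the genes of sterol synthesis when membrane sterol is low. HIF factors, held down by oxygen-dependent prolyl hydroxylases, raise glycolytic and hypoxia genes when oxygen is scarce. Interferon acts through STAT and IRF factors on a large set of antiviral genes. The question the comparison addresses is which genes and programmes differ between cells given Ntoco and cells given the empty vector.

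Short promoter stretches are shown first as examples of motifs searched for in the gene lists described below, whether or not the motif was common in the list. They are from RefSeq windows on GRCm38.p6 that run from 250 bases before to 50 bases after a gene's start. Each motif was searched on both strands, the printed strand is the one on which its letters are read, and capitals mark the match. The genes are members described below whose window holds the motif. A gene can have several RefSeq starts, and the Nfkb2 stretch belongs to a start that lies inside the outermost bounds of that gene.
Hmgcs1, sterol regulatory element, chr13:119690204-119690233, plus strand: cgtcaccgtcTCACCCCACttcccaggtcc
Ccnb2, cell cycle homology region, chr9:70421704-70421733, minus strand: cagggactagaaTTTGAAaataagactgta
Fen1, cell cycle homology region, chr19:10204500-10204529, plus strand: cacagggtgcacTTTGAAaaccttcgcgtt
Rsad2, interferon-stimulated response element, chr12:26456553-26456582, plus strand: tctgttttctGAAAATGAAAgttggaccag
Irgm2, interferon-stimulated response element, chr11:58214903-58214932, plus strand: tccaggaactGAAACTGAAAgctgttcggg
Gbp7, interferon-stimulated response element, chr3:142530273-142530302, minus strand: atggagaactGAAACTGAAActgcacacac
B2m, interferon-stimulated response element, chr2:122147538-122147567, plus strand: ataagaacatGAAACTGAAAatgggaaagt
Selenbp1, hypoxia response element, chr3:94932867-94932896, minus strand: tgtgcacatgtgTACGTGtatatacacatg
Cxcl2, NF-kB site, chr5:90903792-90903821, plus strand: cctgagctcaGGGAATTTCCctggtccccg
Nfkb2, NF-kB site, chr19:46305695-46305724, plus strand: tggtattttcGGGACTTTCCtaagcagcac

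The motifs were common in some of the lists. The cell cycle homology region, TTTGAA, was in the windows of 26 of 34 mitosis genes (76.5%) and of 6 of 37 replication genes (16.2%), against 14.8% of the 9503 tested genes that have a window. The share of replication genes was thus near that of all tested genes. The interferon-stimulated response element (GAAA, any 2 bases, GAAA) was in 9 of 10 windows of interferon-inducible GTPase genes, in 14 of 34 of interferon effector genes and in 5 of 15 of class I antigen presentation genes, against 3.88% of tested genes. The hypoxia response element, TACGTG, was in 8 of 24 windows of hypoxia targets and 4 of 22 of glycolysis genes, against 4.59%. The NF-kB site (GGGA, any base, TTTCC) was in 4 of 19 windows of cytokine and acute-phase genes, against 0.505%. The sterol regulatory element, TCACNCCAC, was in 1 of 15 windows of sterol synthesis genes, against 1.40%. Overlap between matches was allowed, and a match describes the letters of a window and is not a measured binding site.

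The libraries were of like depth. The vector libraries held 19588904 and 19622095 counts and the overexpression libraries 19859041 and 18452588. The table has 0 rows named Ntoco, so the raised RNA itself was not measured and gives no check of the labels. Against the label of a neuronal line, the neuronal genes Map2, Tubb3, Mapt and Stmn2 had at most 3 counts in any of the 4 libraries, and Map2 had 0 in all of them. 6 of 30 neuronal markers passed the filter, among them the adhesion molecule L1cam and the kinase Camk2a. Some genes typical of mesenchymal cells were abundant. The fibroblast list summed to 2389.5 to 5134 CPM (counts scaled to a common library size with the TMM factors) in the vector libraries. In the overexpression libraries it summed to 5253 to 6189 CPM. Most of this came from Vim, S100a4, Col1a1 and Col1a2. Its members Dcn and Lum were at 0, and Col3a1, Fap, Foxc1 and Ptgds had at most 14 counts in any of the 4 libraries. The leukocyte markers Ptprc and Adgre1 and the oligodendrocyte factor Sox10 were at 0. In bulk RNA, fewer cells of a type and less RNA per cell cannot be told apart.

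The libraries of a group differed from each other by about as much as the groups did. The median absolute log2 difference over genes was 0.31 between the vector libraries and 0.24 between the overexpression libraries, and 0.26 to 0.43 between a vector and an overexpression library. Overexpression library 1 stood apart from the other 3. On the log2 scale of CPM plus 0.5, it lay in 92 genes more than 4-fold below all of them, and 55 of these belong to the 111 genes of the interferon-related lists below. Vector library 1 lay as far below the others in 9 genes, and vector library 2 and overexpression library 2 in 0. This rule was chosen after the values were seen.

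The quasi-likelihood test of edgeR passed 0 of 11877 genes (0.0%) at an adjusted p of 0.05, and the lowest adjusted p was 0.593. An unadjusted p under 0.05 was reached by 909 genes, of which 407 were higher (3.43%) and 502 lower (4.23%) in the overexpression group. The count of all such genes was 166 without overexpression library 1, 383 without vector library 1 and 1037 and 1225 without overexpression or vector library 2. DESeq2's Wald test called 1 gene (0.00842%), LOC118567384. In 2837 genes (23.9%) both overexpression libraries lay above both vector libraries, and in 2778 (23.4%) both lay below. The log2 ratio of overexpression to vector was at least 1 in 309 genes and at most -1 in 458, and the central 90% of genes lay between -0.89 and 0.79. Since 0 genes passed with edgeR, higher and lower are used throughout for where the libraries lay, not for tested changes. In each pair of values library 1 comes first, and each log2 ratio is followed by its standard error (SE). The median log2 ratio over all genes tested was -0.01, beside which the lists are read. Counts of list members higher or lower in both libraries are read beside the 23.9% and 23.4% of all genes.

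**Figure D1:**
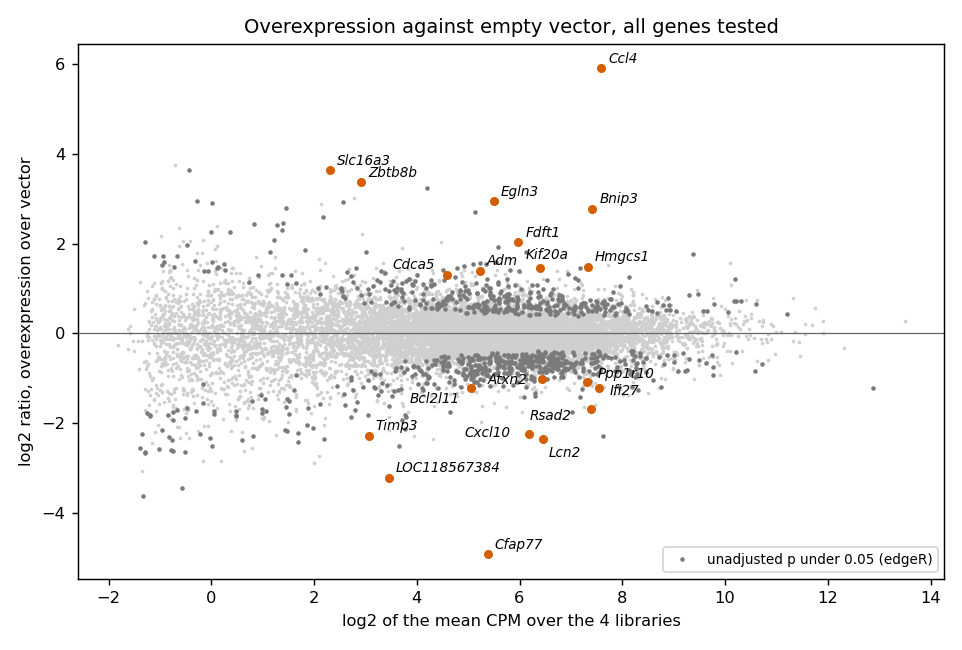
The log2 ratio of overexpression to vector (y axis) is plotted against the log2 of the mean CPM over the 4 libraries (x axis), with 1 point per gene tested, dark grey points for an unadjusted edgeR p under 0.05 and orange points for the labelled genes. Most genes lie near 0, Bnip3 and Egln3 lie far above and Cfap77 and LOC118567384 far below; Ccl4 stands at 5.91 on the value of a single library.

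**Figure D2:**
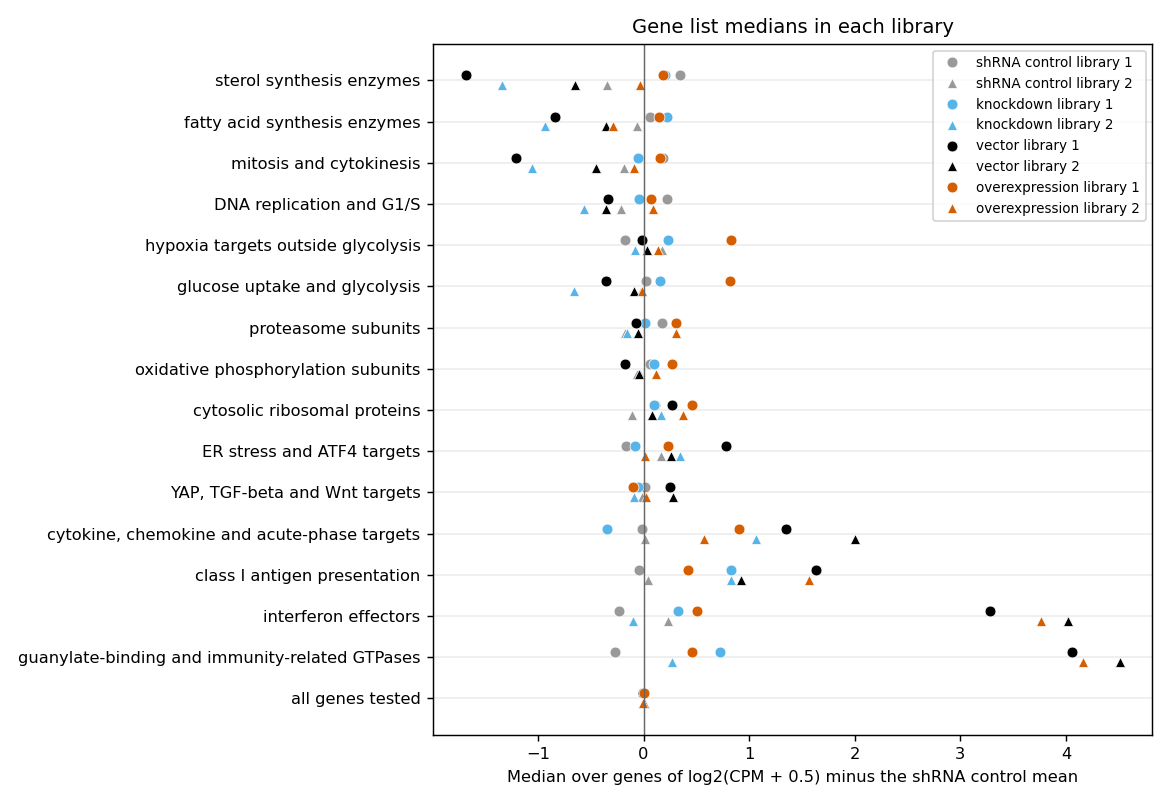
For each gene list shown, the points give the median over its members of log2 CPM minus the mean of the shRNA control libraries. Each of the 8 libraries has 1 point, those of the shRNA control and knockdown groups included. For sterol synthesis and mitosis the overexpression libraries sit near 0 and the vector libraries below it; for the interferon lists overexpression library 1 sits near 0 and the other 3 libraries far above it.

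The list that stood furthest above the rest was that of the sterol synthesis enzymes, the chain from acetyl-CoA to cholesterol. Of 19 tested members (of 20 listed), 18 had both overexpression libraries above both vector libraries and 0 had both below, and 8 were higher at an unadjusted p under 0.05. The median log2 ratio was 1.30. Acat2, which condenses acetyl-CoA at the head of the pathway, had 15.2 and 24.9 CPM with the vector against 72.9 and 78.4 CPM with overexpression. Hmgcs1, which makes the HMG-CoA that the rate-limiting reductase uses, had 84.8 and 83.9 CPM with the vector and 245 and 229 CPM in the overexpression group (log2 ratio 1.49, SE 0.46). In both genes the groups were separated by a wide gap, and the gene whose promoter carries the sterol regulatory element printed above was nearly level within each group. Mvd, which makes isopentenyl pyrophosphate, had 19.2 and 12.3 CPM with the vector and 49.4 and 40.5 CPM with overexpression (log2 ratio 1.51, SE 0.58). Fdps, the farnesyl pyrophosphate synthase, had 34.4 and 183 CPM with the vector against 369.8 and 258 CPM with overexpression, so that vector library 1 lay far below the other 3. Fdft1, squalene synthase, the first enzyme committed to sterols (Entrez Gene 14137, GRCm38 chr14:63145150-63181687), had 18.4 and 30.9 CPM with the vector and 109 and 93.8 CPM in the overexpression group, the widest gap of all higher genes with a mean of at least 5 CPM, and a log2 ratio of 2.04 (SE 0.70). The lanosterol demethylase Cyp51 had 224 and 379 CPM with the vector and 1098 and 942 CPM with overexpression (log2 ratio 1.76, SE 0.59). The methylsterol oxidase Msmo1 had 61.5 and 94.1 CPM with the vector against 246 and 179 CPM with overexpression (log2 ratio 1.45, SE 0.37). Every one of these genes was high in both overexpression libraries, with no overlap.

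The sterol genes in the overexpression libraries lay at the level of the shRNA control libraries, and the vector libraries lay below it. Against the mean of the shRNA control libraries the list median was -1.68 and -0.65 (log2) for the vector and 0.18 and -0.03 in the overexpression libraries. The shRNA control libraries held Fdft1, for example, at 125 and 66.6 CPM. Without vector library 1 the median log2 ratio of the list was 0.80, and without vector library 2 it was 1.79.

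Sterol sensing and transport genes were less uniform, with a median log2 ratio of 0.15 and 6 of 20 members higher in both libraries and 2 lower. Without vector library 2 this median was 0.42. The share of members higher was near the 23.9% of all genes tested. Tmem97, a sterol-regulated membrane protein that binds the cholesterol transporter of lysosomes, had 58.3 and 81.5 CPM with the vector and 175 and 174 CPM in the overexpression group (log2 ratio 1.32, SE 0.34). Insig1, which holds the SREBP escort in the endoplasmic reticulum when sterol is plentiful, had 74.5 and 98.9 CPM with the vector and 302 and 172 CPM with overexpression (log2 ratio 1.45, SE 0.59). The transcription factor Srebf2 itself had 86.7 and 181 CPM with the vector against 304 and 227 CPM with overexpression. The related Srebf1, which serves fatty acid synthesis, had 42.3 and 111 CPM with the vector and 167 and 115 CPM in the overexpression group. Both were lower in both vector libraries, by little between vector library 2 and overexpression library 2. Of the fatty acid synthesis enzymes 7 of 15 were higher in both libraries and 0 lower (median log2 ratio 0.39). Without vector library 1 that median was 0.25, and without vector library 2 it was 0.71. Acly, which makes cytosolic acetyl-CoA from citrate, had 204 and 269.9 CPM with the vector and 439.7 and 428 CPM with overexpression. Acss2, which makes it from acetate, had 3.67 and 13.7 CPM with the vector against 50.5 and 20.6 CPM with overexpression. The desaturase Scd2 had 216 and 891 CPM with the vector and 2357 and 942 CPM in the overexpression group. Libraries of 1 group differed widely in Acss2 and Scd2, whose SEs were 0.97 and 0.90 on log2 ratios of 2.03 and 1.58. Without vector library 1 these ratios were 1.37 and 0.89, and without overexpression library 1 they were 1.24 and 0.77. Elovl6, which lengthens palmitate, had 72.04 and 173 CPM with the vector and 296 and 191 CPM with overexpression. Acsl3, which activates fatty acids, had 31.9 and 44.2 CPM with the vector against 83.8 and 56.7 CPM with overexpression.

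**Figure D3:**
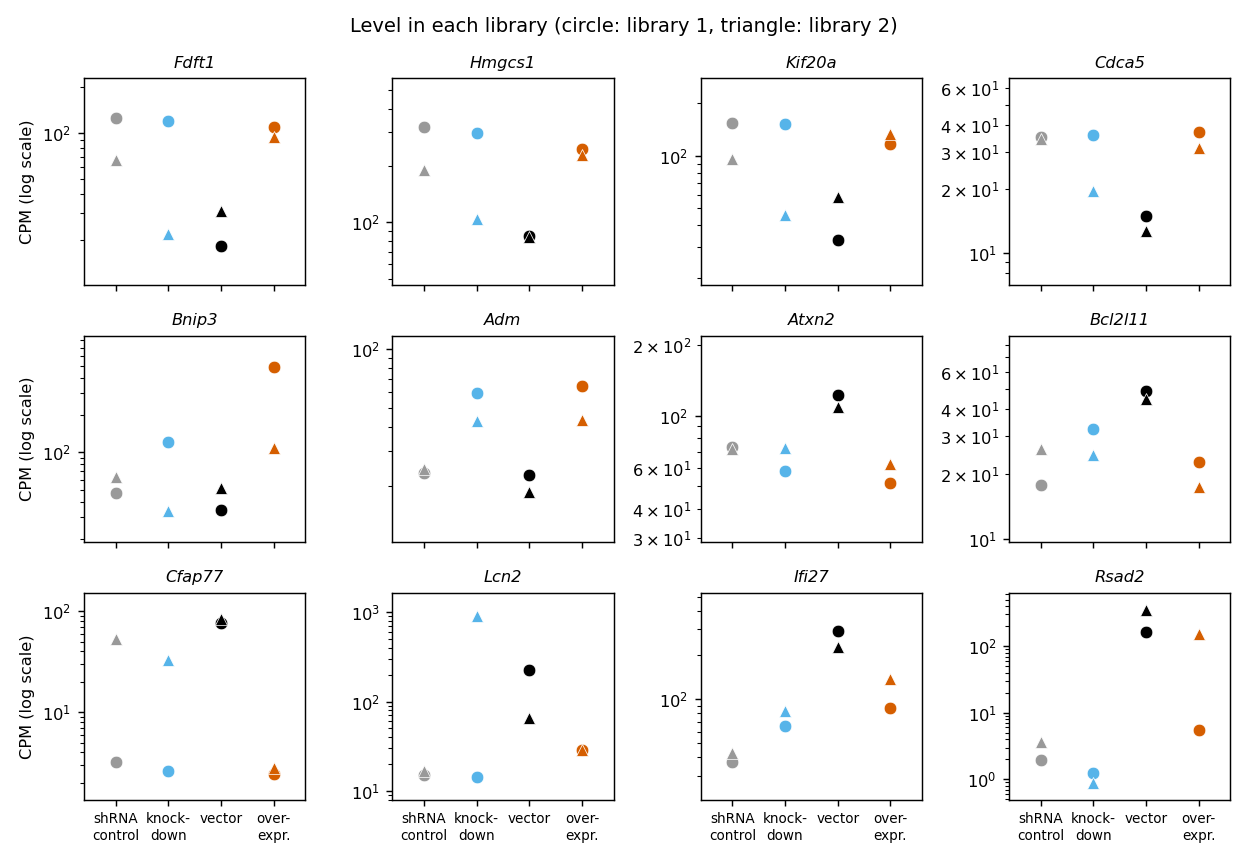
CPM of 12 genes (y axis, log scale) in each of the 8 libraries, with points for single libraries by group. The overexpression points of Fdft1, Hmgcs1, Kif20a and Cdca5 lie above both vector points and within reach of the shRNA control points. Those of Atxn2, Bcl2l11, Cfap77 and Ifi27 lie below both vector points, and those of Rsad2 are spread far apart.

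Genes of cell division were higher as a group. Of 40 mitosis and cytokinesis genes, 31 were higher in both libraries and 0 lower, 11 were higher at an unadjusted p under 0.05, and the median log2 ratio was 0.80. Of 46 replication genes, 30 were higher and 0 lower (median 0.41). Fbxo5, which restrains the anaphase-promoting complex until mitosis, had 13.3 and 18.4 CPM with the vector and 38.3 and 37.3 CPM in the overexpression group. Cdca5, which protects cohesin on replicated chromosomes, had 14.96 and 12.6 CPM with the vector and 37.0 and 31.2 CPM with overexpression. Esco2, which acetylates cohesin in S phase, had 26.0 and 23.9 CPM with the vector against 64.3 and 51.8 CPM with overexpression. All 3 were tight within groups, and their log2 ratios were 1.25 (SE 0.29), 1.31 (SE 0.31) and 1.22 (SE 0.29). The cytokinesis motor Kif20a had 33.0 and 57.8 CPM with the vector and 116 and 133 CPM in the overexpression group (log2 ratio 1.45, SE 0.54). Ercc6l, a helicase of anaphase DNA bridges, had 31.9 and 33.6 CPM with the vector and 74.2 and 77.2 CPM with overexpression (log2 ratio 1.21, SE 0.38). Ccnb2, a B-type cyclin, had 15.7 and 62.4 CPM with the vector against 106 and 62.1 CPM with overexpression. Cdca3 had 13.5 and 54.1 CPM with the vector and 93.7 and 56.2 CPM in the overexpression group. In these last genes vector library 1 stood low while vector library 2 lay at the level of overexpression library 2, so that Ccnb2 overlapped between the groups.

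Among replication genes, the thymidine kinase Tk1 had 19.5 and 50.6 CPM with the vector and 102 and 80.9 CPM with overexpression (log2 ratio 1.39, SE 0.60). Rfc4, of the clamp loader, had 37.5 and 37.2 CPM with the vector against 71.2 and 61.9 CPM with overexpression. Mcm7, of the replicative helicase, had 116 and 103 CPM with the vector and 204 and 175 CPM in the overexpression group. The flap endonuclease Fen1, whose promoter stretch is printed above, had 56.2 and 29.9 CPM with the vector and 58.5 and 95.5 CPM with overexpression. The ligase Lig1 had 57.1 and 77.7 CPM with the vector against 123 and 110.3 CPM with overexpression. All 5 were higher in both overexpression libraries, by a log2 ratio of 0.79 to 1.39. Mxd3, a partner of the MYC dimer Max that appears in S phase, had 1.65 and 3.73 CPM with the vector and 14.3 and 10.9 CPM in the overexpression group (log2 ratio 2.22, SE 1.08). The kinase inhibitor Cdkn2c, which blocks CDK4 and CDK6, was also higher, at 21.9 and 24.9 CPM with the vector and 77.6 and 62.6 CPM with overexpression (log2 ratio 1.58, SE 0.51). Its list, of cell cycle inhibitors and p53 targets, was mixed, with 4 of 25 members higher in both libraries and 6 lower (median -0.35). Over all genes tested these shares were 23.9% and 23.4%, so the share that was lower is near the background. Without vector library 1 the list median was 0.016. The stress-induced kinase Plk3 had 61.8 and 72.6 CPM with the vector against 34.1 and 38.4 CPM with overexpression (log2 ratio -0.89, SE 0.19). Gadd45a had 430.1 and 388 CPM with the vector and 304 and 162 CPM in the overexpression group. Eda2r, a receptor of the tumour necrosis factor family, had 64.6 and 14.4 CPM with the vector and 13.0 and 28.9 CPM with overexpression. Trp53inp1, a p53 cofactor, had 45.7 and 12.6 CPM with the vector against 15.5 and 18.6 CPM with overexpression. Both were high in vector library 1 only.

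As with the sterol genes, the division genes of the overexpression libraries lay near the shRNA control level. The median of the mitosis list against the shRNA control mean was -1.21 and -0.45 for the vector and 0.15 and -0.09 in the overexpression libraries. Without vector library 1 the median log2 ratio of overexpression to vector was 0.44, and without vector library 2 it was 1.29. For the replication list these were 0.49 and 0.40.

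Hypoxia targets and glycolysis genes were higher mainly in overexpression library 1. The median of the hypoxia list, glycolysis left aside, was 0.86 above the vector mean in overexpression library 1 and 0.12 in library 2. For the glucose uptake and glycolysis list these medians were 1.04 and 0.28. Both lists had more members higher than lower in both libraries, 11 and 3 of 32 for hypoxia and 16 and 1 of 22 for glycolysis. Bnip3, a mitophagy receptor and HIF target, had 34.4 and 51.7 CPM with the vector and 485 and 109 CPM in the overexpression group (log2 ratio 2.78, SE 0.78). Egln3, a HIF prolyl hydroxylase that is itself a HIF target, had 10.1 and 10.6 CPM with the vector and 135 and 25.0 CPM with overexpression (log2 ratio 2.95, SE 1.12). The selenium-binding protein gene Selenbp1, whose hypoxia response element is printed above, had 5.16 and 13.5 CPM with the vector against 96.4 and 25.4 CPM with overexpression (log2 ratio 2.70, SE 0.86). In these 3 genes library 1 exceeded library 2 of the same group several-fold, yet library 2 was above both vector libraries. Without overexpression library 1 the log2 ratios of Bnip3, Egln3 and Selenbp1 were 1.33, 1.28 and 1.44. Pdk1, which slows entry of pyruvate into mitochondria, had 15.1 and 26.4 CPM with the vector and 96.5 and 24.4 CPM in the overexpression group, so that only library 1 was high.

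Adm, the vasodilator peptide adrenomedullin and a HIF target, had the smallest unadjusted p of the higher genes, at 22.6 and 18.54 CPM with the vector and 64.8 and 43.4 CPM with overexpression (log2 ratio 1.39, SE 0.27). Its overexpression libraries were nearer to each other than those of Bnip3, Egln3 and Selenbp1. Its shRNA control values were 23.3 and 24.4 CPM, level with the vector. Its knockdown values were 59.8 and 43.1 CPM (log2 ratio of knockdown to shRNA control 1.11, SE 0.27). Adm was thus higher in both comparisons. In the glycolysis list, lactate dehydrogenase A (Ldha) had 651 and 754 CPM with the vector against 2128 and 1143 CPM with overexpression (log2 ratio 1.22, SE 0.40). The glucose transporter Slc2a1 had 70.4 and 101 CPM with the vector and 281 and 109 CPM in the overexpression group. Hexokinase 1 (Hk1) had 43.7 and 88.3 CPM with the vector and 194 and 112 CPM with overexpression. The lactate exporter gene Slc16a3 had 1 and 27 counts with the vector against 334 and 24 with overexpression, a high value in library 1 alone. Aldoc had 12.8 and 13.6 CPM with the vector against 44.7 and 14.7 CPM with overexpression, with the same placing. Among the components of the oxygen-sensing system itself, Egln2 had 20.7 and 21.9 CPM with the vector and 34.7 and 37.9 CPM in the overexpression group (log2 ratio 0.77, SE 0.19). Egln1 had 75.6 and 66.6 CPM with the vector and 167 and 93.6 CPM with overexpression. The HIF subunit Hif1a had 412 and 522 CPM with the vector against 503 and 353 CPM with overexpression. The ubiquitin ligase component Vhl had 60.3 and 51.3 CPM with the vector and 53.9 and 41.1 CPM in the overexpression group. Both overlapped between the groups. Hif1an, the asparaginyl hydroxylase, had 144 and 91.2 CPM with the vector and 71.8 and 90.8 CPM with overexpression. Without overexpression library 1 the median log2 ratio was 0.10 for the hypoxia list and 0.28 for glycolysis, against 0.54 and 0.74 with it.

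**Figure D4:**
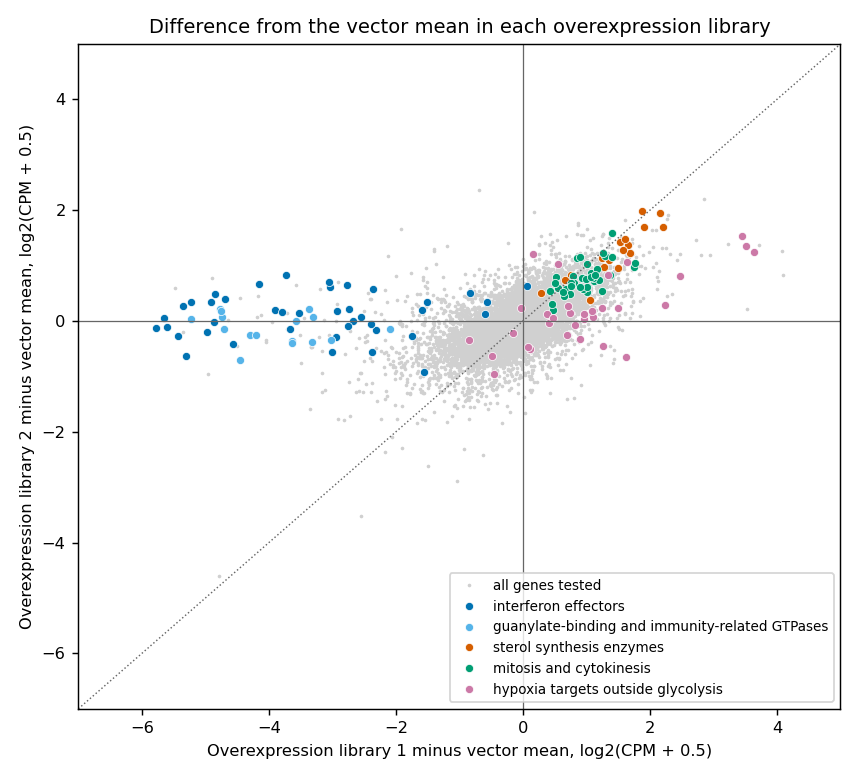
For each gene tested, the log2 CPM of overexpression library 1 minus the vector mean (x axis) is plotted against that of overexpression library 2 (y axis), with coloured points for the members of 5 lists. Sterol and mitosis genes lie to the upper right, where both libraries are above the vector; interferon genes stretch along the left side near 0 on the y axis, low in library 1 only.

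Interferon genes divided the overexpression libraries. The vector libraries and overexpression library 2 held the interferon programme at a high level, and overexpression library 1 held it near the level of the shRNA control cells. Against the shRNA control mean, the median of the 41 effectors was 3.28 and 4.01 in the vector libraries, 0.50 in overexpression library 1 and 3.76 in overexpression library 2. For the interferon-inducible GTPases these were 4.05, 4.51, 0.46 and 4.16. The group medians of log2 ratios, -0.76 for effectors and -1.16 for GTPases, therefore average over libraries that differ many-fold. Without overexpression library 1 they were 0.11 and -0.22, and without overexpression library 2 they were -3.14 and -4.52. When overexpression library 2 was left out, edgeR called 24 genes at an adjusted p under 0.05, all lower, of which 19 are in these lists; the remaining library is then assumed to vary like the other groups.

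The sensors come first in the pathway. Of 17 sensors and adaptors of viral RNA and DNA, 6 were lower in both libraries and 3 higher. Their median log2 ratio was -0.36, -0.018 without overexpression library 1 and -1.25 without library 2 of that group. The long double-stranded RNA sensor Ifih1 had 171 and 180.1 CPM with the vector against 10.2 and 136 CPM with overexpression. The sensor Ddx58, also known as RIG-I, had 306 and 495 CPM with the vector and 24.7 and 383 CPM in the overexpression group. Trim25, the ubiquitin ligase that activates it, had 289.7 and 396 CPM with the vector and 74.4 and 226 CPM with overexpression (log2 ratio -1.19, SE 0.46). The kinase Eif2ak2, which stops translation on double-stranded RNA, had 399.7 and 447 CPM with the vector against 74.7 and 348 CPM with overexpression. Ifih1, Trim25 and Eif2ak2 were thus lower in library 2 as well, by a smaller step. Of the receptors, STATs and IRFs, 9 of 19 were lower in both libraries and 0 higher. The median of that list was -0.24, -0.15 without overexpression library 1 and -0.79 without overexpression library 2. Stat2 had 107 and 137 CPM with the vector and 11.6 and 87.9 CPM in the overexpression group. Its DNA-binding partner Irf9 had 142 and 199 CPM with the vector and 26.8 and 119.8 CPM with overexpression. The factor Irf1 had 63.6 and 101 CPM with the vector against 30.8 and 63.1 CPM with overexpression. Irf2, which competes with it, had 41.3 and 55.004 CPM with the vector and 26.6 and 29.3 CPM in the overexpression group (log2 ratio -0.78, SE 0.23), the member of this list in which the overexpression libraries were most alike among those named.

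Of the effectors, 7 of 41 were lower in both libraries and 0 higher, and of the GTPases 5 of 16 and 0. Among all genes tested 23.4% were lower in both libraries, so the share of effectors was not above the background. The radical enzyme Rsad2, viperin, which has the response element printed above, had 163 and 348 CPM with the vector and 5.55 and 154 CPM with overexpression (log2 ratio -1.68, SE 1.12). The nuclease activator Oas2 had 137 and 50.03 CPM with the vector against 1.43 and 69.1 CPM with overexpression. Parp14, a mono-ADP-ribosyltransferase, had 275 and 384 CPM with the vector and 13.2 and 244 CPM in the overexpression group. Irgm2, a regulator of the immunity-related GTPases, had 262 and 268 CPM with the vector and 11.7 and 162 CPM with overexpression (log2 ratio -1.61, SE 0.93). Gbp7, a guanylate-binding protein gene, had 19.8 and 52.7 CPM with the vector against 1.17 and 27.1 CPM with overexpression. Gbp10 had 21.8 and 26.5 CPM with the vector and 1.48 and 18.0 CPM in the overexpression group. In every one of these the first overexpression library was at a small share of the others, and for Rsad2, Irgm2, Parp14 and Gbp10 the second was below both vector libraries too. Helz2, a helicase, had 273 and 476 CPM with the vector and 44.2 and 243 CPM with overexpression. Slfn5 had 37.1 and 117 CPM with the vector against 4.74 and 59.5 CPM with overexpression.

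Ifi27 differed from that pattern. This interferon-inducible gene of a small mitochondrial protein had 293 and 227 CPM with the vector and 87.4 and 136 CPM in the overexpression group (log2 ratio -1.22, SE 0.27), so both overexpression libraries were clearly below the vector. Its shRNA control values were 37.1 and 43.1 CPM. Slfn4, of the Schlafen family, had 228 and 424 CPM with the vector and 29.9 and 103 CPM with overexpression (log2 ratio -2.30, SE 0.84), with both libraries low as well.

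Class I antigen presentation genes crossed the groups. B2m, the light chain of class I molecules, had 2763 and 1031 CPM with the vector against 765 and 1712 CPM with overexpression. The heavy chain H2-K1 had 2012 and 763 CPM with the vector and 599 and 1146 CPM in the overexpression group. The heavy chain H2-D1 had 435 and 159 CPM with the vector and 138 and 241 CPM with overexpression. Vector library 1 and overexpression library 2 were the high libraries in all 3, and vector library 2 and overexpression library 1 the low ones. Nlrc5, the transactivator of these genes, had 96.8 and 128 CPM with the vector against 26.5 and 62.6 CPM with overexpression (log2 ratio -1.33, SE 0.55), with no overlap. 3 of 18 members were lower in both libraries and 0 higher, and the median log2 ratio of -0.43 became 0.06 without overexpression library 1 and 0.10 without vector library 1. The share of members lower was not above the 23.4% of all genes tested. Class I heavy chain genes are near-identical copies, so counting may have split their reads.

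Genes of the NF-kB pathway and its inflammatory targets were lower more often than higher. Of the subunits, kinases and inhibitors, 8 of 20 were lower in both libraries and 0 higher (median log2 ratio -0.30). Nfkb1, which encodes p105 and p50, had 137 and 193 CPM with the vector and 102 and 96.8 CPM in the overexpression group (log2 ratio -0.73, SE 0.30). Nfkb2, which encodes p100 and p52 and whose stretch before an internal start is printed above, had 119.8 and 176 CPM with the vector and 63.1 and 88.2 CPM with overexpression (log2 ratio -0.97, SE 0.42). Relb, its partner, had 31.4 and 60.5 CPM with the vector against 25.9 and 20.4 CPM with overexpression. Rela, the main activating subunit, had 123 and 119.8 CPM with the vector and 103 and 99.6 CPM in the overexpression group (log2 ratio -0.27, SE 0.17), a small difference between groups that were each nearly level. Map3k14, the kinase that processes p100, had 16.5 and 18.4 CPM with the vector and 3.46 and 13.6 CPM with overexpression, low chiefly in overexpression library 1. The median of this list was 0.00 without vector library 2, the library in which the list stood highest.

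Of the cytokine, chemokine and acute-phase genes, 14 of 26 were lower in both libraries and 2 higher (median log2 ratio -0.94), and here the overexpression libraries were alike, at -0.93 and -0.87 against the vector mean. Lcn2, the lipocalin of the series title, had 228 and 66.2 CPM with the vector against 29.0 and 28.5 CPM with overexpression. The overexpression libraries were level with each other and the vector libraries far apart, and the log2 ratio was -2.36 (SE 1.38). Its shRNA control values of 15.02 and 16.8 CPM were below all of them. The neutrophil chemokine Cxcl2 had 11.8 and 24.1 CPM with the vector and 5.66 and 2.33 CPM in the overexpression group (log2 ratio -2.16, SE 1.34). The interferon-inducible chemokine Cxcl10 had 46.5 and 195 CPM with the vector and 2.60 and 48.6 CPM with overexpression, high in 3 libraries and low in overexpression library 1. The cytokine subunit Il23a had 19.2 and 20.0 CPM with the vector against 8.25 and 5.15 CPM with overexpression. Saa3 was high in vector library 1 alone, at 12.4 and 2.33 CPM with the vector and 1.63 and 2.33 CPM in the overexpression group, and the growth factor Csf2 had 15 and 67 counts with the vector against 15 and 3 with overexpression. Without vector library 2 the median of the cytokine list was -0.52. Of the complement genes 5 of 11 were lower in both libraries and 0 higher (median -0.61). The complement median was -0.36 without overexpression library 1 and -0.41 without vector library 1. C1rb had 3.30 and 5.33 CPM with the vector and 1.78 and 1.83 CPM with overexpression. C3 had 10.4 and 6.58 CPM with the vector against 4.08 and 6.65 CPM with overexpression, and C4b had 65 and 46 counts with the vector against 3 and 19 with overexpression. The lectin pathway protease Masp2 had 30.1 and 12.4 CPM with the vector and 2.14 and 5.32 CPM in the overexpression group (log2 ratio -2.51, SE 1.06).

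The chemokine gene Ccl4, named because its value was seen to stand alone, had 4.85 and 7.77 CPM with the vector and 12.02 and 748 CPM with overexpression. It is the only gene that lay more than 4-fold above the other 3 libraries in overexpression library 2, and its shRNA control and knockdown values were 0.263 and 9.77 and 0.105 and 0.0985 CPM.

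Ferroptosis genes showed no common direction. Of the defence genes 8 of 24 were higher in both libraries and 4 lower, with a median log2 ratio of 0.07. Of the promoting genes 8 of 24 were higher and 6 lower, with a median of -0.07. The shares among all genes tested were 23.9% higher and 23.4% lower. Both medians lay near 0, and that of the promoting genes turned positive whichever library was left out. Gpx4, the reductase of lipid peroxides, had 249.9 and 269.8 CPM with the vector against 328 and 295 CPM with overexpression (log2 ratio 0.26, SE 0.19). Slc7a11, the cystine importer, had 102 and 76.3 CPM with the vector and 66.4 and 31.2 CPM in the overexpression group (log2 ratio -0.87, SE 0.51). Gch1, which makes the antioxidant cofactor tetrahydrobiopterin, had 167 and 127 CPM with the vector and 51.6 and 90.8 CPM with overexpression and was likewise lower in both libraries. The quinone reductase Nqo1 had 1.86 and 5.08 CPM with the vector against 7.999 and 6.37 CPM with overexpression. Mboat1, a phospholipid acyltransferase, had 11.8 and 11.0 CPM with the vector and 17.9 and 17.9 CPM in the overexpression group. On the promoting side, Acsl4, which loads polyunsaturated fatty acids into membranes, had 56.1 and 67.5 CPM with the vector and 69.4 and 68.8 CPM with overexpression, nearly level over 3 libraries. The transferrin receptor Tfrc had 948 and 597 CPM with the vector against 559 and 871 CPM with overexpression, with vector library 1 and overexpression library 2 high. Cyb5r1, a reductase that supplies peroxide, had 349 and 313 CPM with the vector and 189 and 179 CPM in the overexpression group (log2 ratio -0.85, SE 0.56). The iron reductase Steap3 had 42.3 and 62.3 CPM with the vector and 78.9 and 88.8 CPM with overexpression. The epidermal lipoxygenase Aloxe3 had 1.92 and 2.43 CPM with the vector against 0.459 and 0.775 CPM with overexpression. Hnrnpab, the RNA-binding protein of the series title, had 638 and 524 CPM with the vector and 631 and 739.8 CPM in the overexpression group (log2 ratio 0.24, SE 0.26), and its groups overlapped.

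Endoplasmic reticulum (ER) stress genes were lower more often than higher. Of the ER stress and ATF4 targets, 17 of 39 were lower in both libraries and 0 higher (median log2 ratio -0.39). Ern1, the ER stress sensor IRE1, had 91.3 and 106 CPM with the vector and 32.5 and 40.8 CPM with overexpression (log2 ratio -1.43, SE 0.58). Ppp1r15a, GADD34, which ends the translation block, had 534 and 506 CPM with the vector against 220.4 and 191 CPM with overexpression (log2 ratio -1.34, SE 0.74). The stress hormone Gdf15 had 328 and 418 CPM with the vector and 192 and 197 CPM in the overexpression group. The groups did not overlap in any of the 3, although the shRNA control values of Ppp1r15a were as far apart as 101 and 455 CPM. The cationic amino acid transporter Slc7a1 had 1299.9 and 974 CPM with the vector and 710.1 and 487 CPM with overexpression (log2 ratio -0.93, SE 0.36). The hormone Fgf21 had 41.5 and 9.84 CPM with the vector against 4.79 and 5.65 CPM with overexpression, with vector library 1 far above the rest. Without vector library 1 the list median was -0.08, and without vector library 2 it was -0.68.

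Of the immediate early and MAPK feedback genes, 14 of 40 were lower in both libraries and 2 higher (median -0.36). Without vector library 2 that median was -0.095, and without overexpression library 1 it was -0.69. The nuclear receptor Nr4a2 had 14.8 and 18.8 CPM with the vector and 7.18 and 6.59 CPM in the overexpression group (log2 ratio -1.29, SE 0.33). The small Maf factor Maff had 108 and 63.7 CPM with the vector and 36.4 and 43.1 CPM with overexpression. The early response gene Ier5 had 183 and 111 CPM with the vector against 74.0 and 85.6 CPM with overexpression. Ccn1, a matricellular protein and YAP target, had 839.7 and 339 CPM with the vector and 278 and 231 CPM in the overexpression group, high in vector library 1. Of the YAP, TGF-beta and Wnt targets, 11 of 25 were lower and 1 higher (median -0.44). That median was -0.23 without vector library 1 and -0.26 without overexpression library 1. Ankrd1, a muscle ankyrin-repeat protein and YAP target, had 292 and 319 CPM with the vector and 174 and 165 CPM with overexpression (log2 ratio -0.85, SE 0.19). Tead1, the DNA-binding partner of YAP, had 358 and 391 CPM with the vector against 147 and 264 CPM with overexpression (log2 ratio -0.87, SE 0.33). Smad7, which damps TGF-beta signalling, had 34.3 and 56.04 CPM with the vector and 19.2 and 27.2 CPM in the overexpression group. Of the extracellular matrix and adhesion genes 11 of 34 were lower and 3 higher, 8 of them lower at an unadjusted p under 0.05. Among all genes tested 23.4% were lower in both libraries and 23.9% higher, and 4.23% were lower at that edgeR p. The matrix median, -0.17, became 0.16 when vector library 2 was left out and -0.43 when vector library 1 was. The matrix genes were long (median 5847 bases of transcript), and long genes were lower in general, as described below. Measured against genes of like length, the matrix median was -0.02. The laminin chain Lama5 had 64.3 and 103 CPM with the vector and 34.5 and 44.4 CPM with overexpression (log2 ratio -1.09, SE 0.29). The metalloproteinase inhibitor Timp3 had 11.7 and 16.0 CPM with the vector against 3.31 and 2.38 CPM with overexpression (log2 ratio -2.28, SE 0.97). The gelatinase Mmp2 had 27.0 and 22.7 CPM with the vector and 9.73 and 15.4 CPM in the overexpression group (log2 ratio -0.98, SE 0.30). The crosslinking enzyme Loxl2, a hypoxia-inducible gene, was higher, at 14.3 and 18.49 CPM with the vector and 61.6 and 21.99 CPM with overexpression.

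Apoptosis regulators were balanced as a list, with 8 of 30 higher in both libraries and 5 lower (median 0.02). Those shares were near or below the 23.9% and 23.4% of all genes tested. Bcl2l11, the BH3-only killer protein BIM, had 48.9 and 44.9 CPM with the vector against 22.7 and 17.3 CPM with overexpression (log2 ratio -1.23, SE 0.28). The caspase gene Casp6 had 7.35 and 9.12 CPM with the vector and 20.0 and 15.9 CPM in the overexpression group. The inflammatory caspase Casp1 had 23.4 and 33.4 CPM with the vector and 62.5 and 52.9 CPM with overexpression. The pore former Bak1 had 76.2 and 95.7 CPM with the vector against 122 and 151 CPM with overexpression. In each of these 4 the groups did not overlap.

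RNA-binding protein genes included several of the most even differences. Of 39 hnRNPs and RNA-binding proteins 16 were lower in both libraries and 1 higher, 7 lower at an unadjusted p under 0.05, while the list median was -0.05. Atxn2, ataxin 2, a stress granule protein that binds messenger RNA, had 122 and 109 CPM with the vector and 51.7 and 62.2 CPM in the overexpression group (log2 ratio -1.02, SE 0.20), the smallest unadjusted p of all genes. Its paralogue Atxn2l had 361 and 355 CPM with the vector and 192 and 212 CPM with overexpression (log2 ratio -0.82, SE 0.18). Ppp1r10, a nuclear phosphatase subunit involved in transcription, had 233 and 199 CPM with the vector against 95.7 and 109 CPM with overexpression (log2 ratio -1.08, SE 0.23). The RNA-binding protein Taf15 had 227 and 222 CPM with the vector and 99.8 and 114 CPM in the overexpression group (log2 ratio -1.07, SE 0.38). Samd4, a translational repressor that binds RNA hairpins, had 148 and 165 CPM with the vector and 87.9 and 91.4 CPM with overexpression (log2 ratio -0.80, SE 0.19). In all 5 both overexpression libraries were at a similar lower level, and for Atxn2 the shRNA control values, 73.4 and 72.3 CPM, lay between the groups.

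Genes of the ribosome, the respiratory chain and the proteasome lay slightly higher, and so did short genes in general. Ribosomal protein genes had 39 of 60 members higher in both libraries and 0 lower (median 0.24), oxidative phosphorylation subunits 31 of 45 and 0 (median 0.26), and proteasome subunits 28 of 31 and 0 (median 0.34). The complex I subunit Ndufa8 had 49.1 and 69.8 CPM with the vector against 117 and 93.3 CPM with overexpression (log2 ratio 0.82, SE 0.29). The core particle subunit Psma4 had 103 and 143 CPM with the vector and 213 and 199 CPM in the overexpression group. The regulatory ATPase Psmc1 had 122 and 144 CPM with the vector and 205 and 209 CPM with overexpression. Over all genes the median log2 ratio went from 0.20 in the shortest 10% of genes (293 to 1360 bases of transcript, the length implied by count and FPKM) to -0.23 in the longest (8821 to 164773 bases). In that shortest group 43.3% of genes were higher in both libraries and 9.25% lower, and in the longest 10.6% and 37.9%. Measured against genes of their own length group of 10%, the median was 0.06 for ribosomal proteins, 0.09 for oxidative phosphorylation and 0.22 for the proteasome, whereas it was 1.26 for sterol synthesis and 0.78 for mitosis. Reads of ribosomal protein genes can be shared with pseudogenes, so their values are uncertain.

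**Figure D5:**
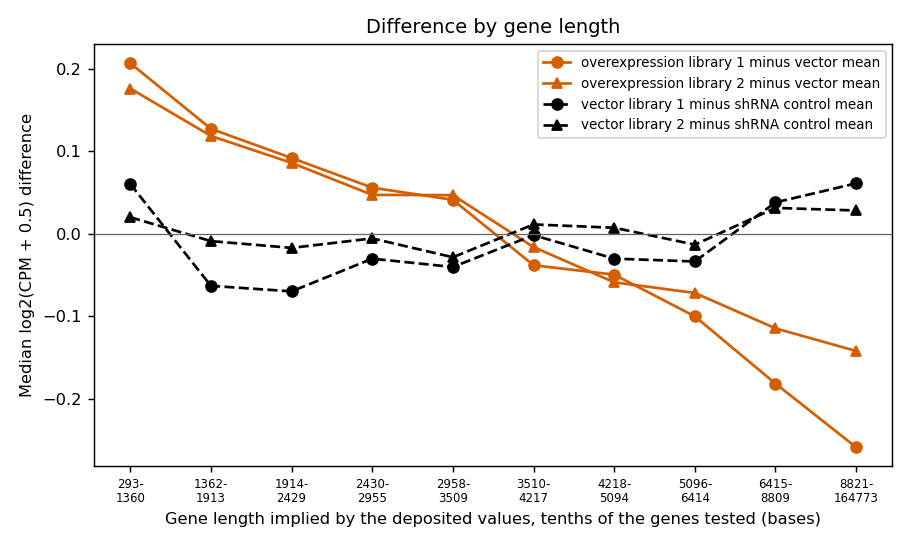
The median log2 difference over genes (y axis) is shown for 10 equal groups of genes by transcript length (x axis, shortest first), with solid lines for the overexpression libraries against the vector mean and dashed lines for the vector libraries against the shRNA control mean. Both solid lines go down from short to long genes, from 0.21 to -0.26 in library 1 and from 0.18 to -0.14 in library 2, while the dashed lines stay near 0.

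NRF2 targets, the antioxidant response genes, had 13 of 30 members higher in both libraries and 3 lower (median 0.36). Srxn1, which repairs peroxiredoxins, had 123 and 187 CPM with the vector against 308 and 284 CPM with overexpression (log2 ratio 0.93, SE 0.30). Pgd, of the pentose phosphate pathway, had 129.8 and 191 CPM with the vector and 336 and 336 CPM in the overexpression group (log2 ratio 1.07, SE 0.39). The epoxide hydrolase Ephx1 had 66.0 and 125 CPM with the vector and 245 and 159 CPM with overexpression. The glutaredoxin Glrx had 13.8 and 14.3 CPM with the vector against 31.1 and 33.3 CPM with overexpression (log2 ratio 1.20, SE 0.45), with a wide gap between groups that were each level. Some heat shock genes had the same order of libraries as the class I genes named above. The constitutive chaperone Hspa8 had 6167 and 436 CPM with the vector and 624 and 4049.6 CPM in the overexpression group. Hsph1 had 589 and 198 CPM with the vector and 179 and 365 CPM with overexpression. The inducible Hspa1b had 27.8 and 0.673 CPM with the vector against 1.02 and 17.7 CPM with overexpression, so vector library 1 and overexpression library 2 were again the high ones. The list had 7 of 24 members higher in both libraries and 1 lower, beside 23.9% and 23.4% of all genes tested. Among its other members, Tcp1, a subunit of the cytosolic chaperonin, had 291 and 398 CPM with the vector and 572 and 503 CPM in the overexpression group.

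Of single genes outside the lists, Cfap77 showed the widest gap of all lower genes by the same measure. This gene of a ciliary microtubule protein (Entrez Gene 329375, GRCm38 chr2:28955481-29055066) had 1449 and 1621 counts with the vector against 48 and 51 with overexpression, or 77.1 and 84.0 CPM with the vector and 2.45 and 2.82 CPM with overexpression (log2 ratio -4.93, SE 1.46). The other groups show how far it varied between libraries alike in treatment, with 61 and 1024 counts in the shRNA control and 50 and 666 in the knockdown libraries. LOC118567384, a gene with no RefSeq coordinates on this build, had 351 and 404 and 58 and 23 counts, or 18.7 and 20.9 CPM with the vector against 2.95 and 1.27 CPM with overexpression. Its log2 ratio was -3.22 (SE 0.73), with an adjusted p of 0.0178 by DESeq2's Wald test and 0.593 by edgeR. Chka, choline kinase, which opens the synthesis of phosphatidylcholine, had 226 and 174 CPM with the vector and 43.9 and 74.2 CPM in the overexpression group (log2 ratio -1.76, SE 0.62). The vitamin D hydroxylase Cyp27b1 had 22.7 and 19.7 CPM with the vector and 4.84 and 7.09 CPM with overexpression. The collagen Col19a1 had 27.7 and 16.5 CPM with the vector against 4.18 and 5.93 CPM with overexpression. The receptor phosphatase Ptprt had 43.2 and 23.7 CPM with the vector and 4.13 and 8.86 CPM in the overexpression group, all without overlap. Nr6a1, an orphan nuclear receptor, had 18.8 and 14.2 CPM with the vector and 4.43 and 6.26 CPM with overexpression (log2 ratio -1.63, SE 0.46). Lime1, a lymphocyte membrane adaptor, had 22.8 and 20.6 CPM with the vector against 3.36 and 8.59 CPM with overexpression (log2 ratio -1.86, SE 0.48).

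Further higher genes stood outside the lists. Ccdc85b had 2.77 and 4.30 CPM with the vector and 11.5 and 13.5 CPM in the overexpression group (log2 ratio 1.82, SE 0.64). Pdzd4 had 4.85 and 5.02 CPM with the vector and 13.3 and 13.9 CPM with overexpression. The homeobox gene Hoxb13 had 3.57 and 3.37 CPM with the vector against 9.48 and 8.47 CPM with overexpression (log2 ratio 1.37, SE 0.40). The mitochondrial ribosomal protein gene Mrpl35 had 18.4 and 17.8 CPM with the vector and 30.2 and 34.3 CPM in the overexpression group (log2 ratio 0.84, SE 0.20). Cdc42ep2, an effector of the GTPase Cdc42, had 7.61 and 6.63 CPM with the vector and 16.9 and 15.1 CPM with overexpression. The kinase gene Hunk had 21.1 and 18.0 CPM with the vector against 35.7 and 39.6 CPM with overexpression. In all 6 the groups did not overlap. Zbtb8b, at 1.17 and 1.502 CPM with the vector and 23.4 and 4.21 CPM in the overexpression group, and Kctd16, at 1.01 and 1.71 CPM with the vector and 16.7 and 4.27 CPM with overexpression, were high mainly in overexpression library 1, as the hypoxia genes were.

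The overexpression difference was also set against the knockdown difference, which rests on other control samples. The test asks whether the log2 ratio of overexpression to vector differs from that of knockdown to shRNA control. With edgeR 0 genes passed (0.0%, lowest adjusted p 0.653, 807 genes at an unadjusted p under 0.05), and with DESeq2 15 genes passed (0.126%). Of these, LOC118567384, Ifi27 and C3 are named above, with log2 ratios of -3.22, -1.22 and -0.67 in the overexpression and 1.55, 0.88 and 3.40 in the knockdown comparison. All 3 had opposite signs, and the DESeq2 adjusted p of the difference was 0.00100, 0.00164 and 0.00198. The knockdown ratio of LOC118567384 rests on knockdown library 2, with 47 and 41 counts in the shRNA control and 45 and 226 in the knockdown libraries. For C3 the overexpression and vector libraries overlapped, so the sign of its overexpression ratio is uncertain. Ifi27 had 37.1 and 43.1 CPM in the shRNA control and 65.5 and 82.6 CPM in the knockdown libraries. Ccl4, also named above, had a positive difference, with a single high value in overexpression library 2 and knockdown values near the floor. The other genes DESeq2 called are named for that reason only. Tmx1, Smg5, Ssx2ip, Tbcd, Myo1c, Cerk, Ect2 and Pbk had a positive difference, and Txnip, Ctso and C1ra a negative one. For Txnip, which binds thioredoxin, the log2 ratio was -0.78 in the overexpression and 2.81 in the knockdown comparison, and for Tmx1, an ER thioredoxin, 0.56 and -1.70, so in these the knockdown side carried most of the difference.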

How the data were processed

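The authors deposited a table of unnormalized read counts, 1 row a gene, and FPKM values (fragments per length and library size), which equalled the deposited count divided by 1 gene length and the library total in 12615 of the 12615 genes with a count in every one of the 8 libraries (tolerance 0.01). Per the submitters' processing notes, Trimmomatic, HISAT2, Cufflinks, HTSeq, DESeq and the build mm10 were used. The sources used here do not give their versions or the strand setting, so reads of overlapping genes on opposite strands cannot be told apart. Columns were matched to groups by the role their names show (for example OE for overexpression), and 0 were left out. Gene names and coordinates come from RefSeq (GRCm38.p6), to which 16737 rows matched by Entrez Gene identifier.

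Counts of all 8 libraries were fitted in a single edgeR model with a mean per group (TMM factors 0.959 to 1.05, 4 residual degrees of freedom, biological coefficient of variation 27.8%), since 2 libraries a group leave few degrees of freedom. Genes were tested with the quasi-likelihood F-test and Benjamini-Hochberg adjustment over 11877 genes. Log2 ratios use a prior count of 0.125, and single libraries were compared as log2 of CPM plus 0.5. The median SE over genes was 0.29 on the log2 scale. The script was tested on simulated data. DESeq2, other scaling and filters, a replicate block and leaving out each library were tried. The members and the 36 gene lists were chosen with earlier results of these data known. Genes named are those whose groups were furthest apart (15 each way, mean of at least 5 CPM), those with the smallest p (10 each way), the 5 largest ratios of each list (mean of at least 1 CPM), and the genes of the series title with Gpx4, Slc7a11, Acsl4 and Tfrc, some left out for space. Computations used edgeR 4.0.16 with limma 3.58.1 and DESeq2 1.42.0 in R 4.3.3, and Python with pandas 2.3.3, numpy 2.4.6 and matplotlib 3.10.9.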

Additional observations from a re-analysis of the deposited data

Results flagged for a closer look

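In 10 of 36 gene lists the median over members, in log2 CPM, was on 1 side of the vector mean in both overexpression libraries and on the opposite side of the shRNA control mean in both knockdown libraries. Other lists lay on the same side in all 4 libraries. Among them were ribosomal proteins (0.29 and 0.22 with overexpression, 0.10 and 0.17 with knockdown) and YAP, TGF-beta and Wnt targets (-0.38 and -0.25, -0.05 and -0.09). How many of the 36 lists would be opposite without any effect was not tested. The difference was not tested over lists, and over single genes edgeR called 0 and DESeq2 15. For complement and microglia markers, 2 of the 10 lists, all 4 medians lay further from the control mean than the control libraries did. In the other 8 at least 1 did not. The 2 control libraries of a comparison set that mean themselves, so other libraries tend to lie further from it without any effect. Lying outside this control spread therefore singles out no list. Knockdown library 1 was inside that spread for mitosis (-0.05, controls within 0.19), replication (-0.05, controls within 0.22) and NRF2 targets (-0.04, controls within 0.12). Both overexpression libraries were inside the vector spread for neuronal markers (0.10 and 0.02, vector within 0.31). Overexpression library 2 was inside it for RNA and DNA sensors (-0.01, vector within 0.08) and GTPases (-0.14, within 0.21). The same held for interferon receptors and factors (-0.14, within 0.17) and astrocyte markers (0.19, within 0.27). Knockdown library 2 was also inside its control spread for interferon receptors and factors (0.02, within 0.11). The overexpression side was higher in 6 lists. For mitosis genes (40 genes) the medians were 0.95 and 0.75 in the overexpression libraries and -0.05 and -1.05 in the knockdown libraries, and the median difference of log2 ratios was 1.33. For replication genes (46 genes) the medians were 0.34 and 0.43 in the overexpression libraries and -0.05 and -0.56 in the knockdown libraries, and the median difference of log2 ratios was 0.70. For NRF2 targets (30 genes) the medians were 0.46 and 0.38 in the overexpression libraries and -0.04 and -0.26 in the knockdown libraries, and the median difference of log2 ratios was 0.48. For neuronal markers (6 genes) the medians were 0.10 and 0.02 in the overexpression libraries and -0.34 and -0.29 in the knockdown libraries, and the median difference of log2 ratios was 0.44. For astrocyte markers (7 genes) the medians were 0.71 and 0.19 in the overexpression libraries and -0.25 and -1.01 in the knockdown libraries, and the median difference of log2 ratios was 0.61. For microglia and macrophage markers (5 genes) the medians were 0.61 and 0.19 in the overexpression libraries and -0.12 and -0.77 in the knockdown libraries, and the median difference of log2 ratios was 1.33.

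The overexpression side was lower in 4 lists. For the RNA and DNA sensors (17 genes) the medians were -1.19 and -0.01 in the overexpression libraries and 0.31 and 0.05 in the knockdown libraries, and the median difference of log2 ratios was -0.46. For interferon receptors, STATs and IRFs (19 genes) the medians were -0.78 and -0.14 in the overexpression libraries and 0.29 and 0.02 in the knockdown libraries, and the median difference of log2 ratios was -0.41. For interferon-inducible GTPases (16 genes) the medians were -3.92 and -0.14 in the overexpression libraries and 0.73 and 0.27 in the knockdown libraries, and the median difference of log2 ratios was -1.73. For complement genes (11 genes) the medians were -0.72 and -0.33 in the overexpression libraries and 0.45 and 0.95 in the knockdown libraries, and the median difference of log2 ratios was -1.76.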

How the results depend on the processing

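The count of edgeR calls stayed at 0 with RLE size factors, with filterByExpr, with no filter, with the replicate block and with the block crossed; DESeq2 gave 1 call, a fit of only the compared groups 1 (Cfap77), and leaving out a library 0 to 24. For the difference from the knockdown, DESeq2 gave 15. Genes at an unadjusted p under 0.05 ranged from 166 to 1225 when a library was left out, 92 to 714 higher and 74 to 755 lower. The lowest counts came without overexpression library 1. The columns carry numbers that the labels do not explain, and deviations of same-numbered vector and overexpression libraries correlated at -0.22 across genes, while those of the shRNA control and knockdown libraries correlated at 0.37, so the numbers were not taken as pairing the vector and overexpression libraries. With the replicate block the median log2 ratio of complement genes was -0.67, Hspa1b 0.32 and Hspa8 0.18; with the numbers crossed, an alternative chosen after seeing the data, the complement median was -0.67 and 0 genes passed.

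Leaving out a library gave median log2 ratios of 0.096 to 0.84 for hypoxia targets, 0.28 to 1.04 for glycolysis, -0.17 to 0.053 for the HIF system, 0.16 to 0.42 for sterol sensing, 0.44 to 1.29 for mitosis and 0.34 to 0.49 for replication. They were -1.25 to -0.018 for RNA and DNA sensors, -0.79 to -0.15 for interferon receptors and factors, -3.14 to 0.11 for effectors, -4.52 to -0.22 for GTPases, -0.48 to 0.00080 for NF-kB, -1.26 to -0.52 for cytokines and -0.84 to -0.36 for complement. For the stress and death lists they were -0.019 to 0.18 (ferroptosis defence), 0.0068 to 0.048 (promotion), -0.48 to 0.016 (p53), -0.014 to 0.11 (apoptosis), -0.68 to -0.084 (ER stress), -0.69 to -0.095 (immediate early) and 0.26 to 0.51 (NRF2). The remaining ranges were -0.43 to 0.16 for matrix, -0.41 to -0.23 for YAP, -0.11 to -0.082 for RNA-binding proteins, 0.14 to 0.36 for ribosomal proteins, 0.36 to 0.38 for the proteasome, and -0.086 to 1.04, 0.073 to 1.13, -0.22 to 0.30, -0.68 to 0.55 and -0.062 to 0.77 for astrocyte, microglia, oligodendrocyte, endothelial and fibroblast markers. In all, 15 of 36 medians took the opposite sign when some library was left out; the cause was not tested.

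Single genes that changed sign when a library was left out had log2 ratios of -1.31 to 0.26 (B2m), -1.21 to 0.19 (H2-K1), -1.20 to 0.26 (H2-D1), -2.40 to 2.42 (Hspa8), -3.80 to 3.78 (Hspa1b), -1.14 to 0.46 (Hsph1), -0.47 to 0.26 (Tfrc), -0.41 to 0.11 (Hif1a), -1.63 to 0.54 (Eda2r) and -1.42 to 0.43 (Trp53inp1). Centring on groups of genes of like length, also chosen after seeing the data, gave 0.060 for ribosomal proteins, 0.091 for oxidative phosphorylation, 0.22 for the proteasome, 0.36 for replication, -0.35 for YAP targets and 0.048 for ferroptosis promotion. With 2 libraries a group the spread between libraries, not depth, sets the precision.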
